A study of Mus musculus with 2 samples.

Results

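Maf and Bach basic leucine zipper factors and their close relatives were described in progenitors of group 2 innate lymphoid cells (ILC2), the innate lymphocytes that produce type 2 cytokines. The genes were 9 named members, Maf, Maff, Mafg, Mafk, Bach1, Bach2, Nfe2, Batf and Batf3, and all 9 were found by symbol among the 27179 genes of the deposited tables. The study holds 1 group of 2 libraries, called pool 1 and pool 2. Both came from C57BL/6 mice aged 8 weeks, from bone marrow cells sorted by flow cytometry, with 8 mice pooled for each library; no treatment or genetic change is given in the labels, nor are the sort antibodies or the sex of the mice. The heading inside each file carries the code of the other library, so if the headings are right, the names pool 1 and pool 2 change places throughout.

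Basic leucine zipper proteins bind DNA as dimers, and the partner decides which sites are bound and whether genes there are activated or repressed. The small Maf proteins (MafF, MafG and MafK) lack an activation domain. They pair with Bach1 and Bach2, which repress, or with the CNC factors Nfe2, Nfe2l1 and Nfe2l2, which activate, at Maf recognition and antioxidant response elements. Large Maf proteins such as c-Maf, the product of Maf, carry an activation domain of their own and drive cytokine genes in T cells. Batf and Batf3 pair with Jun proteins and bind composite elements together with the interferon regulatory factors Irf4 and Irf8. Bach1 senses haem, and Bach2 restrains effector differentiation in lymphocytes.

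The libraries held 20216146 reads in pool 1 and 19834586 in pool 2, totals recovered from the steps between the deposited values. Totals of 40432292 and 39669172 also gave whole reads for all 17233 genes above 0. The smaller pair was taken because 8.86% of its gene lengths lay within 2% of GENCODE, beside 5.04% for the larger, so all read numbers and intervals rest on that choice. Levels are in RPKM, reads scaled to the length of the gene and to the size of the library. Comparison between genes thus rests on the gene lengths used. At these depths 3 reads in a gene of 1 kb equal 0.148 RPKM in pool 1 against 0.151 in pool 2. A gene was counted as detected at 1 RPKM or more in both pools. Genes that mark ILC2 were present, with 8 of 8 (among them Gata3, Il7r and Thy1) detected at a median of 208 RPKM. Markers of other cells were also found, with summed levels from pool 1 to pool 2 of 956 to 2309 RPKM for 8 neutrophil genes, 758 to 2141 for 8 erythroid genes and 306 to 472 for 8 T cell genes, and 7 of 8 detected in each list. For 8 macrophage genes, of which 6 were detected, the sum went from 124 to 214 RPKM, with Lyz2 alone at 107 and 198. Of these 6 detected genes, 4 were higher in pool 2 and 2 in pool 1. In such bulk samples, fewer cells of a type and less RNA per cell cannot be told apart.

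The gene starts of 3 small Maf genes are shown first, because Maff was the only one of the 9 genes at least 2-fold apart between the pools and Mafg and Mafk are its nearest relatives. Each sequence runs from 250 bases before to 50 bases after a transcription start in RefSeq (build GRCm38.p6), of which Maff has 3. Its second start is printed because its letters hold a cyclic AMP response element, a choice made after the letters were read. Capitals mark matches, on either strand, to the letters TGANTCA (AP-1), TGACGTCA (cyclic AMP response element), TGCTGA (one arm of the Maf recognition element), TGACNNNGC (core of the antioxidant response element) or CACGTG (E-box). No 2 matches overlapped in the sequences shown.
Maff, second start, chr15:79347270-79347569, plus strand: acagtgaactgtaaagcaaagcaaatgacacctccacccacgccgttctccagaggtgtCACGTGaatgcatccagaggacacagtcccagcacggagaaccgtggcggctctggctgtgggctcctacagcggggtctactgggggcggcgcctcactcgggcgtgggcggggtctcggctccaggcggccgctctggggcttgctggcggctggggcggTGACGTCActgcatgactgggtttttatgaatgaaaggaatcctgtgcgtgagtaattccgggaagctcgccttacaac
Mafg, chr11:120633498-120633797, minus strand: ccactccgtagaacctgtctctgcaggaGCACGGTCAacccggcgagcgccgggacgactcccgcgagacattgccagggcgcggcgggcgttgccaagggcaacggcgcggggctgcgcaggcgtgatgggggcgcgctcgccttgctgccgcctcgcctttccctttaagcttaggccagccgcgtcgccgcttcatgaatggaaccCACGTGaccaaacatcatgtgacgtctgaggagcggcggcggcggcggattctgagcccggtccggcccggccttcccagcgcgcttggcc
Mafk, chr5:139791286-139791585, plus strand: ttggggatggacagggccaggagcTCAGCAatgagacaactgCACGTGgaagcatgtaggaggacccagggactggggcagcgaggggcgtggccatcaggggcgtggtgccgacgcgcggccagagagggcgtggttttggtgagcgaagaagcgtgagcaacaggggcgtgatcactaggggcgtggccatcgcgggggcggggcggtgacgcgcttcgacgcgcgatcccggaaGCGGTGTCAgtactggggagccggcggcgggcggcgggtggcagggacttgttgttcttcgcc

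Positions give the first base of a match, negative before the start. The second Maff start held TGACGTCA at -29 and an E-box at -191. TGACGTCA occurs in 1.79% of all 32851 promoters of this length and in none of the other 8 promoters of these genes, which cover 7 of the 9 genes. Promoters of Maf and Nfe2 were not analysed here. Mafg held an E-box at -41 and the reverse complement of TGACNNNGC at -222. Mafk held an E-box at -208, the reverse complement of TGCTGA at -226 and the reverse complement of TGACNNNGC at -13. E-boxes occur in 7.15% of all promoters, TGACNNNGC in 12.4% and TGCTGA in 19.5%. The first Maff start held TGACNNNGC at -112, Bach1 the reverse complement of TGCTGA at -212 and Batf3 an E-box at -247, whereas the third Maff start and the promoters of Batf and Bach2 held no match. TGANTCA, found in 7.81% of all promoters, was in none of the 9 promoters scanned. A match describes letters only, and binding was not measured.

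All 9 genes were detected in ILC2 progenitors, where 40.5% of all genes in the tables were. Batf and Maf were the most abundant, Bach1, Mafk, Nfe2, Mafg and Maff lay in a middle range, and Batf3 and Bach2 were close to the detection threshold. Over the 9 genes the median of the mean level was 14.5 RPKM, beside 14.6 RPKM over the 11013 detected genes. Those 9 genes are thus spread through the range of detected genes, from the 2.20th percentile (Bach2) to the 89.1st (Batf).

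**Figure D1:**
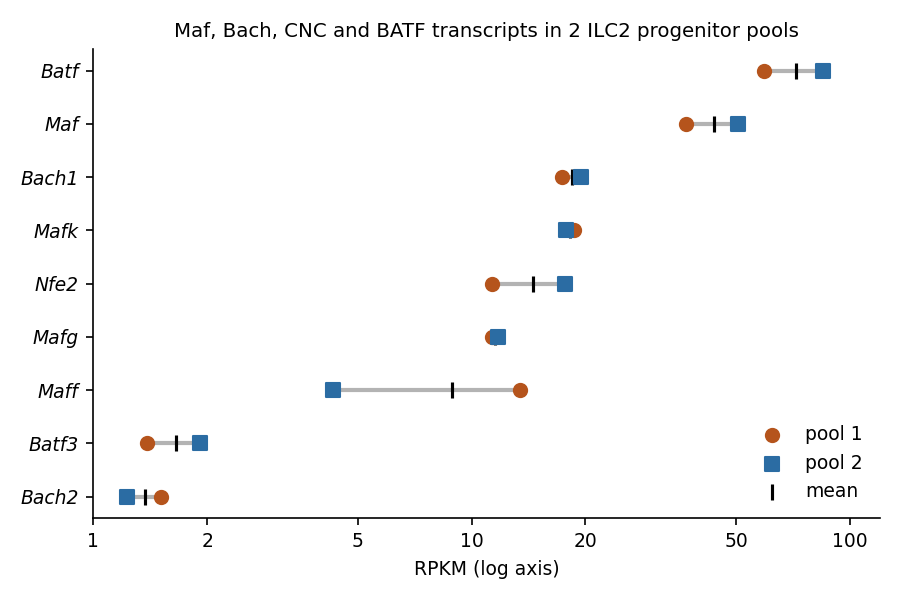
RPKM (log axis) of the 9 genes in pool 1 (circles) and pool 2 (squares), with the mean of both as a bar; each symbol is 1 library. Batf (59.4 and 84.9) and Maf (36.8 and 50.7) stand above the rest, Batf3 and Bach2 are under 2 RPKM, and Maff has the widest gap.

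The large Maf gene Maf (Entrez ID 17132, chromosome 8, 115682942 to 115707794, minus strand, GENCODE M21 on mm10) was at 36.8 RPKM in pool 1 against 50.7 in pool 2, a mean of 43.8 ± 9.80 (SD, n = 2 pools). It was higher in pool 2 by a ratio of 1.38, with a 95% counting interval of 1.31 to 1.45 from 2713 and 3663 reads. Such intervals are exact conditional binomial ones and cover counting error only, not differences between mice. The gene model behind the deposited value fits a length of 3642 bases, which equals the RefSeq gene (115703253 to 115706894) and is 44.2% of the 8241 exonic bases in GENCODE. An antisense gene, Gm15655, shares exonic bases with Maf in GENCODE. Whether the shared bases lie within the 3642 counted was not checked, and whether strand was used in the counting is not given. It is therefore not known whether a part of the Maf reads belongs to that gene. The large Maf gene Mafa, a factor of pancreatic beta cells, had 2 reads and 1 read, and Nrl, a retinal factor, was listed at 0 in both pools.

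Genes that c-Maf is known to control in other lymphocytes were unevenly expressed. Il4, the type 2 cytokine, was at 11.8 and 12.8 RPKM, and Il22, a cytokine of type 3 cells, at 3.50 and 5.19. Il10 was at 1.21 and 0.772 RPKM, Il17a had 0 reads and 1 read, and Il21 was listed at 0 in both. Markers of type 3 innate lymphoid cells were higher in pool 2, as were Maf and 6311 of all 11013 detected genes. Of the 6 markers, 5 were detected, all 5 higher there, with Il23r and Ccr6, receptors of these cells, among those at least 2-fold apart. Their sum went from 36.1 to 85.1 RPKM, Il17a is the marker near 0, and their part in the Maf difference was not tested. Both lists hold Il22 and Il17a.

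The 3 small Maf genes were expressed together, at differing steadiness. Mafk (Entrez ID 17135, chromosome 5, 139791513 to 139802653, plus strand) was at 18.6 and 17.8 RPKM in pools 1 and 2 (18.2 ± 0.567, n = 2), and Mafg (Entrez ID 17134, chromosome 11, 120625117 to 120633600, minus strand) at 11.3 and 11.8 (11.5 ± 0.285). Neither was apart between the pools beyond counting error. The ratio of pool 1 to pool 2 was 1.05 for Mafk (interval 0.958 to 1.14), and that of pool 2 to pool 1 was 1.04 for Mafg (0.896 to 1.20), whose sign turned with another scaling. In GENCODE, exons of Mafg share bases with the neighbouring Sirt7 on the same strand. Those of Mafk share bases with Tmem184a on the other strand, which was listed at 0 in both pools. Whether the shared bases were among those counted was not checked.

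Maff, the small Maf gene known to be induced by inflammatory and stress stimuli (Entrez ID 17133, chromosome 15, 79346621 to 79359076, plus strand), was at 13.4 RPKM in pool 1 against 4.31 in pool 2, a mean of 8.88 ± 6.45 (n = 2). Pool 1 was 3.12-fold higher (counting interval 2.59 to 3.76, from 489 and 154 reads). On the scale used for calling, log2(RPKM + 0.1), which understates the difference of low genes, pool 2 minus pool 1 was -1.62. This was the 1 of 9 genes at least 2-fold apart, where 2.56% of detected genes were apart in either direction, 0.962% with pool 1 higher and 1.6% with pool 2 higher. One gene of 9 sets no share for the family. The difference of Maff was larger than that of 99.3% of detected genes. With 1 library on each side there is no test of it.

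**Figure D2:**
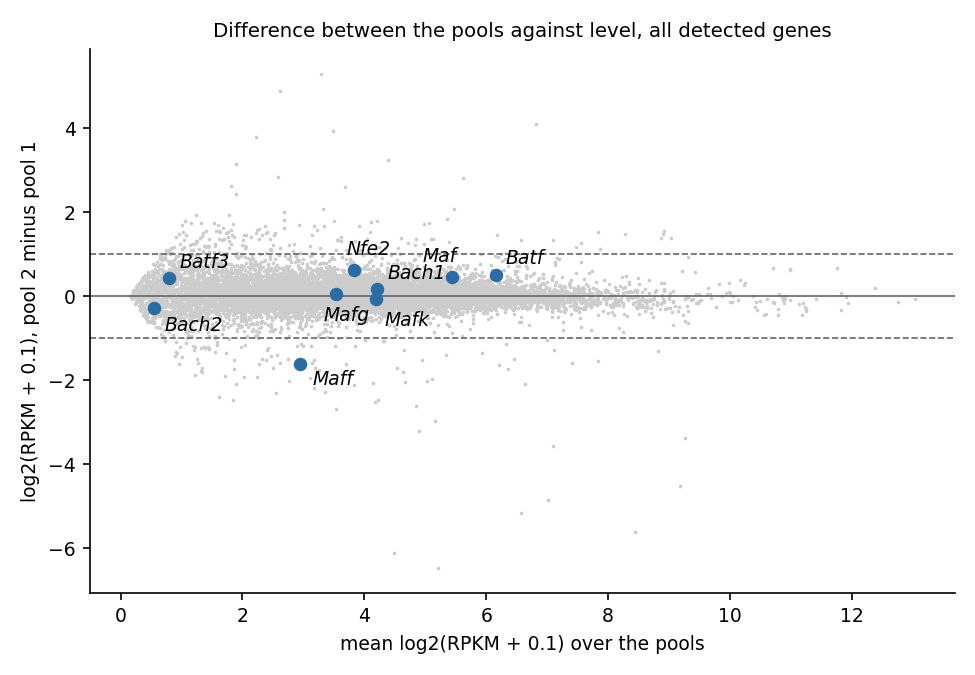
Difference between the pools (pool 2 minus pool 1 of log2(RPKM + 0.1)) against the mean level for the 11013 detected genes (grey) and the 9 genes named (blue); dashed lines mark 2-fold. Maff at -1.62 lies below the lower line, and the other 8 lie between the lines, from -0.28 (Bach2) to 0.64 (Nfe2).

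The genes that lay nearest to Maff in both pools, by the larger of the 2 log2 differences, were Flrt2 at 15.1 and 4.99 RPKM, Gm11974 at 11.4 and 5.11, and the nuclear RNA Neat1 at 12.0 and 5.19, within 0.21, 0.24 and 0.26 (log2). For Batf, the most abundant of the 9, they were Rab8b at 60.4 and 86.5, Tmem154 at 60.9 and 88.3, and Frg1 at 57.1 and 81.4 RPKM, within 0.03, 0.06 and 0.06. This likeness rests on 2 libraries only.

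Since small Maf proteins work through partners, their summed transcripts were set beside those of the partner families. The small Maf sum was 43.4 RPKM in pool 1 against 33.9 in pool 2, and without Maff it was 29.96 and 29.56. Maff made up 31.0% of the small Maf sum in pool 1 and 12.7% in pool 2. Mafk held the largest share in both, 42.9% and 52.6%. The Bach and CNC genes together summed to 97.9 and 107 RPKM, which is 2.26 and 3.16 times the small Maf sum. Protein amounts were not measured.

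**Figure D3:**
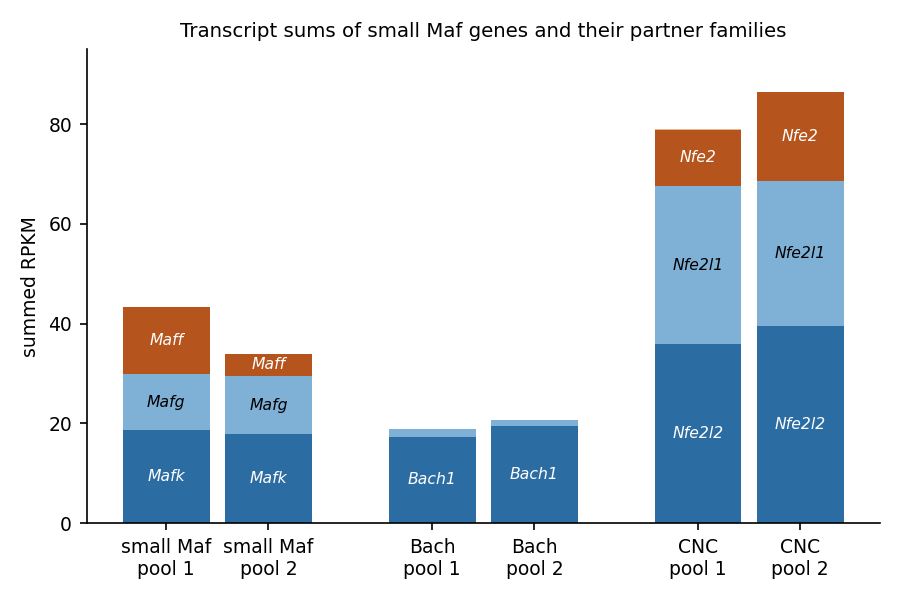
Summed RPKM of the small Maf, Bach and CNC genes in each pool, 1 library a bar, with each gene as a segment; the short light segment on Bach1 is Bach2, and Nfe2l3 is too small to see. The small Maf bar goes from 43.4 in pool 1 to 33.9 in pool 2, nearly all of it in the Maff segment, while the CNC bar goes from 79.0 to 86.5.

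The Bach repressors differed widely in level. Bach1 (Entrez ID 12013, chromosome 16, 87698945 to 87733346, plus strand) was at 17.4 RPKM in pool 1 against 19.4 in pool 2 (18.4 ± 1.47, n = 2), a ratio of 1.12 (interval 1.03 to 1.22). Bach2 (Entrez ID 12014, chromosome 4, 32238804 to 32586108, plus strand) was at 1.51 and 1.23 RPKM (1.37 ± 0.202), 1.23-fold higher in pool 1 (1.02 to 1.49, from 260 and 207 reads). Bach1 was thus 11.5-fold and 15.8-fold above Bach2 and held 92.0% and 94.1% of the Bach sum. The antisense gene Bach2os shares bases with the GENCODE exons of Bach2. Whether these were among the bases counted was not checked, so the low reads of Bach2 carry that doubt as well. Bach2 is abundant in B cells, whose 7 markers summed to 40.2 RPKM in pool 1 against 88.8 in pool 2, with 3 of 7 detected and Ebf1 near 0 at 0.0220 and 0.157 RPKM. Their part in the Bach2 level was not tested.

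Targets of Bach1 and of its CNC competitors were largely alike in both pools. Of 14 haem, iron and antioxidant genes 12 were detected and 0 were 2-fold apart, with a median log2 difference of -0.05 beside 0.04 over all detected genes. The ferritin genes Fth1 and Ftl1, which store iron, were at 929 and 940.3 RPKM and at 100.4 and 96.2, and Gclc, the catalytic subunit of the first step of glutathione synthesis, at 91.2 and 97.5. Hmox1, the haem oxygenase that Bach1 is best known to repress, was at 17.8 RPKM in pool 1 against 11.6 in pool 2, the largest difference toward pool 1 on the list (-0.62). The cystine transporter gene Slc7a11 was lowest at 0.129 and 0.120 RPKM, and Nqo1, a quinone reductase, was also below detection at 0.446 and 0.780.

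Genes that Bach2 is known to hold down in T cells ranged widely in level, and 7 of 8 were detected. Gata3, the ILC2 factor, was at 292 and 250.3 RPKM, Klrg1, a receptor of differentiated lymphocytes, at 73.8 and 106, and Prdm1, which encodes Blimp-1, at 2.97 and 4.56. Il5 was 2.35-fold higher in pool 1, at 3.32 against 1.41 RPKM, and the granzyme gene Gzmb 2.35-fold higher in pool 2, at 8.53 against 3.63. These were the 2 genes of the list at least 2-fold apart. Il13 was at 6.28 and 3.76 RPKM, and Ifng was lowest at 1.07 and 0.710. The median log2 difference was 0.12.

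Nfe2, the p45 subunit of the erythroid factor NF-E2 (Entrez ID 18022, chromosome 15, 103248212 to 103258403, minus strand), was at 11.4 RPKM in pool 1 against 17.7 in pool 2, a mean of 14.5 ± 4.49 (n = 2). Pool 2 was 1.56-fold higher (interval 1.37 to 1.78, from 383 and 586 reads), the largest difference after Maff. Differences beyond counting error were common, with 45.3% of detected genes past an adjusted p of 0.05 in an exact binomial test on the reads of these 2 libraries, which compares the libraries and not conditions. At a fold of 1.5, Nfe2 and Maff were the 2 of 9 genes apart, where 8.45% of detected genes were. Nfe2 is a gene of erythroid cells and megakaryocytes, and 7 of 7 detected erythroid markers were higher in pool 2, 5 of them at least 2-fold. Of all 11013 detected genes, 6311 were higher in pool 2, and 1.6% were so by 2-fold or more. Alas2, the first enzyme of haem synthesis in red cells, went from 21.5 to 77.7 RPKM, and the 8 erythroid genes summed to 2.83 times as much in pool 2. None of 8 megakaryocyte markers was detected in both pools, and their sum was 2.30 RPKM in pool 1 against 6.67 in pool 2. Among them Itga2b was at 0.662 and 1.82 RPKM, Pf4 at 0.673 and 1.801 and Gp9 at 0.0610 and 1.803, while Gp1bb had 0 reads and 1 read and Tubb1 had 1 read and 0 reads. Neutrophil markers summed to 2.41 times as much in pool 2, and those of mast cells and basophils to 111 and 104 RPKM. The part of these cells in the Nfe2 level was not tested.

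Among the other CNC genes, Nfe2l2 and Nfe2l1 were steadier and more abundant than Nfe2. Nfe2l2, which encodes the oxidative stress factor NRF2, was at 35.9 and 39.6 RPKM and Nfe2l1, a factor of proteasome genes, at 31.7 and 29.0. Their ratios of pool 2 to pool 1 were 1.10 and 0.917. Keap1, which targets NRF2 for degradation, was at 22.9 and 20.7 RPKM, and Nfe2l3 had 5 reads in each pool. Nfe2 made up 14.4% of the CNC sum in pool 1 and 20.5% in pool 2. Of the 7 genes on the list of other Maf and CNC genes, which also holds Keap1, 3 were detected (Nfe2l1, Nfe2l2 and Keap1). Of these, 0 were 2-fold apart.

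Batf (Entrez ID 53314, chromosome 12, 85686669 to 85709087, plus strand) was the highest of the 9 genes, at 59.4 RPKM in pool 1 against 84.9 in pool 2 (72.2 ± 18.04, n = 2). Pool 2 was 1.43-fold higher (interval 1.32 to 1.55), a difference above that of 89.2% of detected genes. Batf is also a gene of T cells, whose markers summed to 1.54 times as much in pool 2. All 7 detected T cell markers had their higher value there, where 6311 of all 11013 detected genes did. They ran from Cd3g at 104 and 195 RPKM to the nearly level Cd6 (27.3 and 28.0) and Cd5 (36.5 and 37.1). Cd8a was listed at 0 in both pools. The part of T cells in the Batf level was not tested. Batf3 (Entrez ID 381319, chromosome 1, 191097847 to 191108945, plus strand) was at 1.39 and 1.91 RPKM (1.65 ± 0.369), from only 20 and 27 reads, and its ratio of 1.38 was within counting error (0.743 to 2.59). Batf was 42.8-fold and 44.4-fold above Batf3, and Batf2 had 3 reads in each pool. Batf3 is required by type 1 dendritic cells. Of 7 markers of these cells, 2 were detected (Irf8 and Xcr1), the sum was 12.3 and 14.2 RPKM, and Clec9a was near 0 at 0.0150 and 0.199. Their part in the Batf3 level was not tested.

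The Jun genes, whose proteins pair with Batf, were higher in pool 1, whereas Irf4 and Irf8 were less than 2-fold apart. The list examined also held Fos genes, whose proteins pair with Jun and not with Batf in the scheme above. Of its 12 AP-1 and IRF genes 10 were detected, 7 were at least 2-fold higher in pool 1 and 0 in pool 2, with a median log2 difference of -1.78. Over all detected genes, 0.962% were at least 2-fold higher in pool 1 and 1.6% in pool 2. Fos went from 2441 RPKM in pool 1 to 49.6 in pool 2, Junb from 1969.6 to 189.7, Fosb from 569 to 15.8 and Jun from 471 to 39.5. Jund was 2.91-fold, Fosl2 2.92-fold and Atf3 4.18-fold higher in pool 1. The Jun genes summed to 46.4 times the Batf, Batf2 and Batf3 sum in pool 1 and to 4.17 times in pool 2. Irf4, the usual partner on composite elements in T cells, was at 1.87 and 2.41 RPKM and Irf8 at 8.24 and 9.04. Jdp2, a repressor that pairs with Jun, was at 15.7 and 16.9, and Fosl1 was lowest with 3 reads and 1 read.

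Beside the Maff difference, immediate early genes were higher in pool 1. Of 14 listed 12 were detected, all 12 had their higher value in pool 1, and for 11 of them the gap was 2-fold or more. Of all 11013 detected genes, 4702 were higher in pool 1, and 0.962% were so by 2-fold or more. The median log2 difference of the 12 was -3.30, and 5 of the 14 are also on the AP-1 and IRF list. Zfp36, which destabilises mRNA, went from 2786 to 120.3 RPKM and Dusp1, a phosphatase of MAP kinases, from 692 to 23.9, while Egr2, lowest of the list, was at 1.27 and 0.799. Maff, at -1.62, had a smaller difference than the list median of -3.30. It was near Ier2 (-1.59) and Egr3 (-1.81), picked for their nearness, and far from Fos (-5.62). The part of this program in the Maff level was not tested. Batf, at 0.51, and Maf, at 0.46, differed in the opposite direction.

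**Figure D4:**
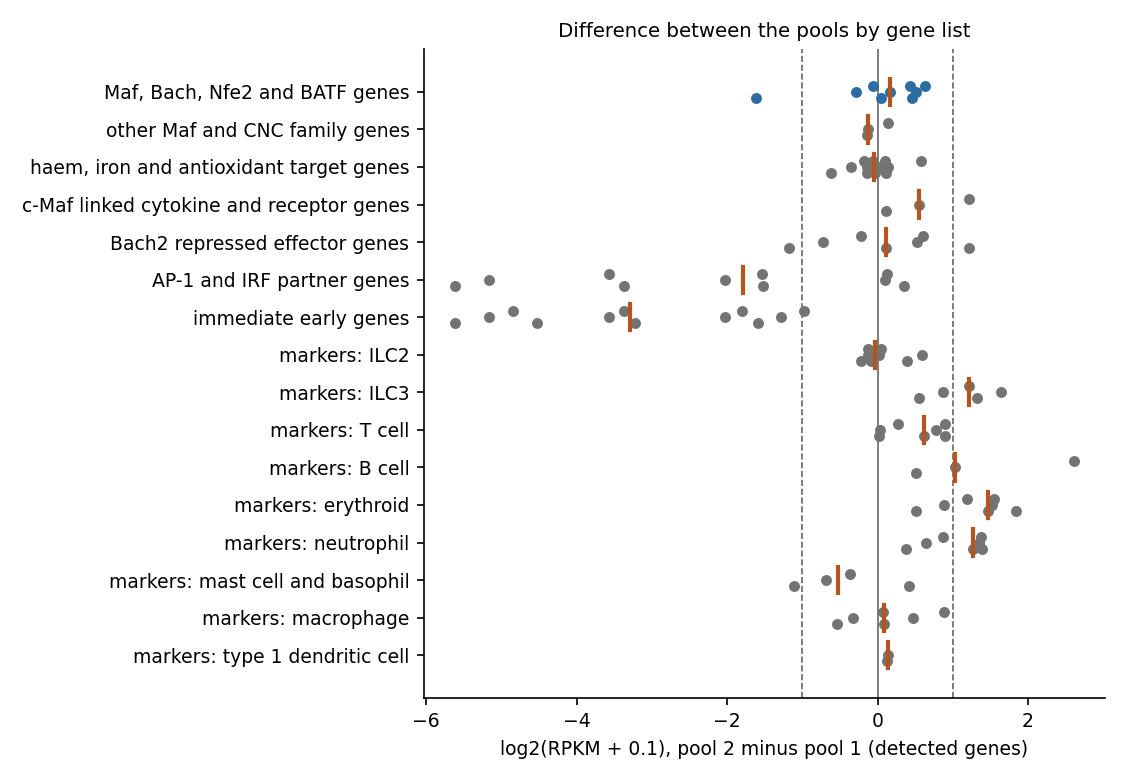
Difference between the pools (pool 2 minus pool 1 of log2(RPKM + 0.1)) for each detected gene of the lists named, with the list median as a bar; dashed lines mark 2-fold. Of 10 AP-1 and IRF genes (median -1.78), 7 lie toward pool 1 and 3 (Irf4, Irf8 and Jdp2) toward pool 2. Immediate early genes (-3.30) lie toward pool 1, and erythroid (1.47), neutrophil (1.27) and ILC3 (1.21) markers toward pool 2. Between the 2-fold lines lie 8 of the 9 Maf, Bach, Nfe2 and BATF genes.

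By mean level the order was Batf, Maf, Bach1, Mafk, Nfe2, Mafg, Maff, Batf3 and Bach2. The ranges over the pools overlapped between Bach1 and Mafk, Nfe2 and Mafg, Mafg and Maff, and Batf3 and Bach2, so these neighbours did not differ beyond their spread. Batf, Maf and Bach1 were separated from one another in both pools, as were Maff and Batf3. Mafk, at 17.8 RPKM or more, lay only just above Nfe2, at 17.7 or less. Maff ranked 5 in pool 1 and 7 in pool 2.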

How the data were processed

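RNA was sequenced from 2 libraries of sorted ILC2 progenitors, each a pool of 8 mice; 100 ng of total RNA entered the TruSeq preparation, per the labels' protocols. The authors deposited RPKM values per Entrez gene. Per the submitters' processing notes, the tools included featureCounts, CASAVA 1.8.2 and edgeR (3.8.2 and 3.22.0), with mm10 as the build and no roles stated. The sources used here do not give the aligner, annotation or strand setting.

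Library totals and whole reads were recovered in Python 3.11.15 (scipy 1.17.1) as the totals at which each gene has a whole length that gives whole reads in both libraries within the deposited digits. This held for 17233 of 17233 genes above 0 (100%), against 0.1% of 1000 genes with totals wrong by 1 part in 1000. Reads are lower bounds, since multiples of a length, and doubled totals, also fit, so the counting intervals are if anything too wide. The recovery was tested on simulated data. That simulation was told which multiple of the totals to use, so it cannot decide between the totals taken and the doubled ones. With 1 library on each side of the comparison, no test of the pools as conditions was possible. An exact binomial test on whole reads, with Benjamini-Hochberg adjustment, was an alternative and compares the libraries only. Genes were called apart by 2-fold on log2(RPKM + 0.1).

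The members and lists were chosen with earlier results of these data known. From each list the text names the 3 highest genes, the lowest and those 2-fold apart, plus the 3 genes nearest to Batf and Maff; other names (Hmox1, Nqo1, Prdm1, Il10, Jdp2, Irf4 and Irf8 among them) were chosen after their values were seen. The other genes of the lists enter only counts, medians and sums, and some results are not reported here.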

Additional observations from a re-analysis of the deposited data

How the results depend on the processing

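The 9 genes were detected at 0.5 RPKM, with no filter and in either pool alone, and 6 of them at 5 RPKM. Their median level was 14.5 RPKM over both pools and 13.4 to 17.7 in single pools. The count of genes 2-fold apart was 1 (Maff) with a pseudocount of 0.01 or 1, with the median ratio set to 1, with trimmed mean scaling, with no filter and with an exact binomial test added. It was 2 (Maff and Nfe2) at a fold of 1.5, and 0 at 5 RPKM, a filter that Maff misses by its level of 4.31 in pool 2. Over all genes the counts apart were 282 as reported, 931 at a fold of 1.5, 1535 with no filter and 102 at 5 RPKM. The log2 difference of Maff ranged from -1.67 to -1.44. The sign of Mafg turned with trimmed mean scaling (-0.0031 against 0.050). The Bach2 list had 1 gene apart with a pseudocount of 1 and 0 at 5 RPKM, against 2 as reported; the other 5 lists stayed within 1.5 times their counts. Not divided by length, Maf (134 and 185 CPM) exceeded Batf (53.7 and 76.8), and 5 of 9 ranks were kept. No paired analysis was possible because the study holds 1 group. Depth limits Batf3 most, with 20 and 27 reads.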

Other observations

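The gene lengths that fit the deposited values were shorter than the GENCODE exons for all 9 genes, from 29.2% of the exonic bases for Mafg (1639 of 5613) to 85.4% for Bach2 (8493 of 9940). Those for Maf, Batf3 and Bach1 were 44.2%, 44.6% and 47.4%. Each is the shortest length that fits. For Maf, Mafg, Bach1 and Batf3 a multiple of it also lies within the exons, and their reads are lower bounds. RPKM from longer gene models were not analysed here.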
